A study of Rattus norvegicus with 30 samples.

Results

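RNA was measured in rat bone marrow mesenchymal stem cells (BMSCs) after 12 h in adipogenic differentiation medium (AD_12h, 3 samples) and in undifferentiated BMSCs (CON, 3 samples). These 6 of the 30 samples in the study were identified by their titles. The cells of all groups came from Sprague Dawley rats, and the methods name 3 female animals 3 weeks old, cells at passage 2, and 3 cultures pooled into each sample. Each AD_12h sample was a separate pool, but it is not stated whether the pools came from different animals. The p-values therefore measure the spread between pools of the same group, estimated over all 10 groups of the study and not over AD_12h and CON alone. Cells kept for 12 h without induction were not analysed here, so effects of the medium and effects of time or of a medium change cannot be told apart. A further 4 groups served to place the 12 h samples, namely cells after 3 h (AD_3h) or 3 d (AD_3d) in the same medium and cells after 12 h in osteogenic (OS_12h) or chondrogenic (CH_12h) medium, with 3 samples each.

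Adipogenesis starts from fibroblast-like precursors that are pushed by glucocorticoid, cAMP and insulin signals, the usual ingredients of adipogenic media. In the textbook sequence, early transcription factors (TFs) such as those of the C/EBP family induce Pparg and Cebpa, which then switch on the genes for storing fat. In cultured preadipocyte lines, a round of cell division can precede that switch.

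Values are CPM, the reads of a gene as counts scaled to a common total per sample, summed over rows of the same gene name. The totals were 6594559 to 7179051 reads in CON and 5405033 to 6836525 reads in AD_12h, and 3 reads, taken as the floor of detection, corresponded to 0.418 to 0.555 CPM in these samples. Some genes that nearly every cell uses were listed near 0, as Actb, Vim and Ppia did not pass 5.39, 1.58 and 0.455 CPM in any of the 30 samples, whereas B2m and Rplp0 reached 1040 and 7542 CPM. A gene listed near 0 is therefore reported as such and not as absent from the cells. Of the MSC markers, Thy1 lay at 7736 to 8280 CPM in CON and 4666 to 6057 CPM in AD_12h, and Cd44 at 579 to 628 and 368 to 405 CPM. Eng, Vcam1, Pdgfra and Pdgfrb did not pass 1.82 CPM in the 6 samples. None of the 5 MSC markers tested was called with limma (5 were lower at an unadjusted p under 0.05, which is from limma here and throughout, and 1 was called lower with edgeR). None of the 4 macrophage markers was called with either when all replicates were used (1 was lower at an unadjusted p under 0.05), but without replicate 1 limma called Itgax higher and Lgals3 lower (1.43 and -1.04). Their summed level was 2.3 to 2.6 CPM in CON and 1.6 to 6.1 CPM in AD_12h (Csf1r 0 to 0.418 CPM, Adgre1 listed at 0). In such bulk samples, fewer cells of a type and less RNA per cell cannot be told apart.

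AD_12h replicate 1 lay apart from replicates 2 and 3. The listed genes held 64.6% of its reads, against 54.2% and 54.3% in replicates 2 and 3 and 53.7% to 54.2% in CON. Its distance from replicates 2 and 3, the Euclidean distance over the tested genes on the log2(CPM + 1) scale, was 38.8 and 38.6, whereas those replicates were 27.9 apart. The 3 samples were nearly equally far from CON (55.6 to 57.3), but replicate 1 was nearer to the OS_12h samples (47.7 to 48.3) than replicates 2 and 3 were (60.3 to 62.1). Distances within the other groups ran from 24.5 to 48.4 with a median of 25.8. Values use all 3 replicates unless stated, and changes of call against CON without replicate 1 among the list members reported are given beside their list.

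In total, 597 of 4363 tested genes (13.7%) were differentially expressed genes (DEGs) between AD_12h and CON, that is, their means differed by 1 or more on the log2 scale in either direction at an adjusted p under 0.05. Of these, 355 (8.14%) were higher and 242 (5.55%) lower after 12 h. Log2 fold changes are differences of log2(CPM + 1), with the SE of the limma model after ±, and for genes at low CPM they come out smaller than the true ratio. Without replicate 1, 649 genes (14.9%) were called, 371 (8.5%) higher and 278 (6.37%) lower. The 526 genes called both ways had the same direction, whereas 71 were called only with replicate 1 and 123 only without it. The split between rises and falls depended on the scaling, because the median gene was 0.15 higher in AD_12h. After median-ratio scaling, which removes this shift, 243 genes were higher and 340 lower, and edgeR gave 318 and 411. Among the tested genes, 1963 (45.0%) had all 3 AD_12h samples on the same side of all 3 CON samples, and this held for 583 of the 597 DEGs.

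The largest rises were in Igfbp5, Crispld2, Tsc22d3 and Mt2A, and the largest falls in Kprp, Egln3, Cyr61, Ccr1 and Bhlhe40. Igfbp5, which encodes a secreted protein that binds insulin-like growth factors, was at 3.87, 5.99 and 6.67 CPM in CON and at 767, 166 and 174 CPM in AD_12h replicates 1 to 3. All 3 AD_12h samples were far above CON, and replicate 1 was the highest of them. The log2 fold change was 5.46 ± 0.74 (adjusted p = 5.85e-07) with all replicates and 4.74 without replicate 1. Sez6l, a membrane protein gene best known from neurons, was at most at 1 read in any CON sample and at 2.34, 14.2 and 14.2 CPM in AD_12h, at least 22.5-fold higher by the group means. Kprp, a gene of the cornifying epidermis, was at 772, 767 and 811 CPM in CON and at 197, 9.39 and 7.22 CPM in AD_12h. Its fall of 4.93 on the log2 scale with all replicates became a log2 fold change of -6.41 without replicate 1. Ccr1, a chemokine receptor gene, was at 69.1 to 79.2 CPM in CON and 2.41 to 5.12 CPM in AD_12h (log2 fold change -4.04 ± 0.28, adjusted p = 9.35e-13).

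**Figure D1:**
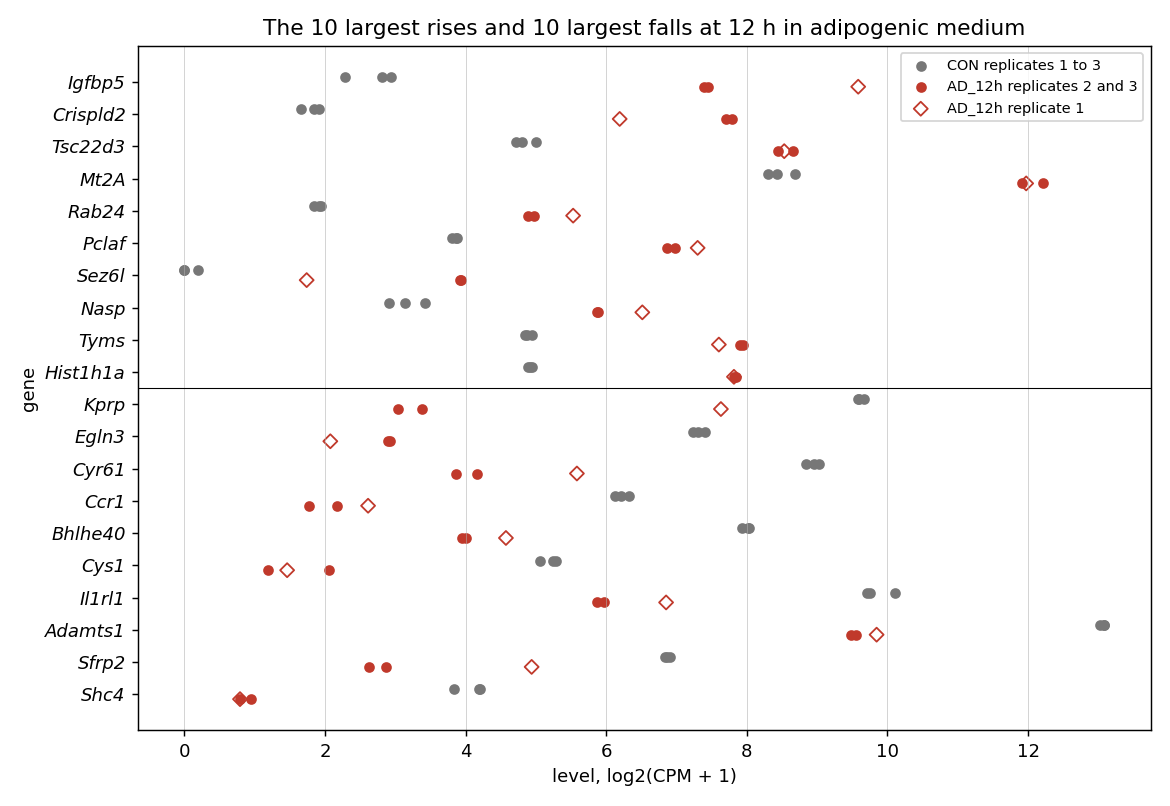
Level of the 10 genes with the largest rise (above the line) and the 10 with the largest fall (below it) in each sample, as log2(CPM + 1), for CON (grey), AD_12h replicates 2 and 3 (filled red) and AD_12h replicate 1 (open diamonds). The genes were chosen among those in which the AD_12h and CON samples do not overlap, and replicate 1 lies between CON and the other replicates for Kprp, Sfrp2 and Sez6l but beyond them for Igfbp5.

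The genes of the glucocorticoid list were split, with Crispld2, Tsc22d3 and Mt2A among the largest rises in the data. Of the 13 members tested, 4 rose and 4 fell, also without replicate 1, where Tgm2 took the place of Hsd11b1 among the falls, against 8.14% called higher and 5.55% lower among all tested genes, and the median log2 fold change was -0.25 against 0.15 over all. Tsc22d3 encodes GILZ, a leucine zipper protein induced by glucocorticoids. It was at 31.1, 26.9 and 25.3 CPM in CON and at 369, 348 and 402 CPM in AD_12h, a 13.4-fold difference of the means (log2 fold change 3.70 ± 0.15, adjusted p = 1.27e-17). The 3 AD_12h replicates were close together for this gene. Mt2A, a metallothionein that binds zinc and copper, rose from 316 to 410 CPM in CON to 4021, 3872 and 4738 CPM (3.56 ± 0.13, adjusted p = 1.52e-18). Crispld2, a secreted protein gene induced by glucocorticoids, was at 2.15, 2.79 and 2.58 CPM in CON and at 72.1, 207 and 221 CPM in AD_12h, so replicate 1 was the lowest of its group but far above CON. Snai2, a zinc finger repressor of the Snail family, was at 5.85 to 7.89 CPM in CON and at 21.6, 65.9 and 82.5 CPM in AD_12h (2.64 ± 0.28, adjusted p = 8.25e-09, and 3.21 without replicate 1). The members that fell were Ctgf, Gadd45b, Dpep1 and Hsd11b1. With edgeR 4 members were called higher and 5 lower, and the median was -1.28 against -0.002 over all tested genes. Hsd11b1, which regenerates active glucocorticoid inside cells, was at 1056 to 1246 CPM in CON and at 527 to 612 CPM in AD_12h (-1.02 ± 0.10), and without replicate 1 it missed the fold threshold at -0.95. Fkbp5, Klf9 and Zbtb16 were not analysed here.

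These rises were compared with the earlier time point and the other media in the same fit. Tsc22d3 was 1.16 ± 0.15 higher on the log2 scale than in AD_3h, 2.31 ± 0.15 higher than in OS_12h and 1.86 ± 0.15 higher than in CH_12h. The group means were 166, 74.7 and 102 CPM in those groups. Mt2A differed in the same way, by 1.11, 2.02 and 3.87. Snai2 was 1.28 higher than in AD_3h, 2.44 higher than in OS_12h and 3.46 higher than in CH_12h. Crispld2, in contrast, was lower than in CH_12h (mean 712 CPM), by a log2 fold change of -2.25 ± 0.23. After 3 d in adipogenic medium Snai2 and Igfbp5 reached means of 271 and 10096 CPM, the latter with 1 of the 3 samples far below the others. The comparisons with CON, AD_3h, OS_12h and CH_12h all use the same AD_12h samples and are not independent.

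**Figure D2:**
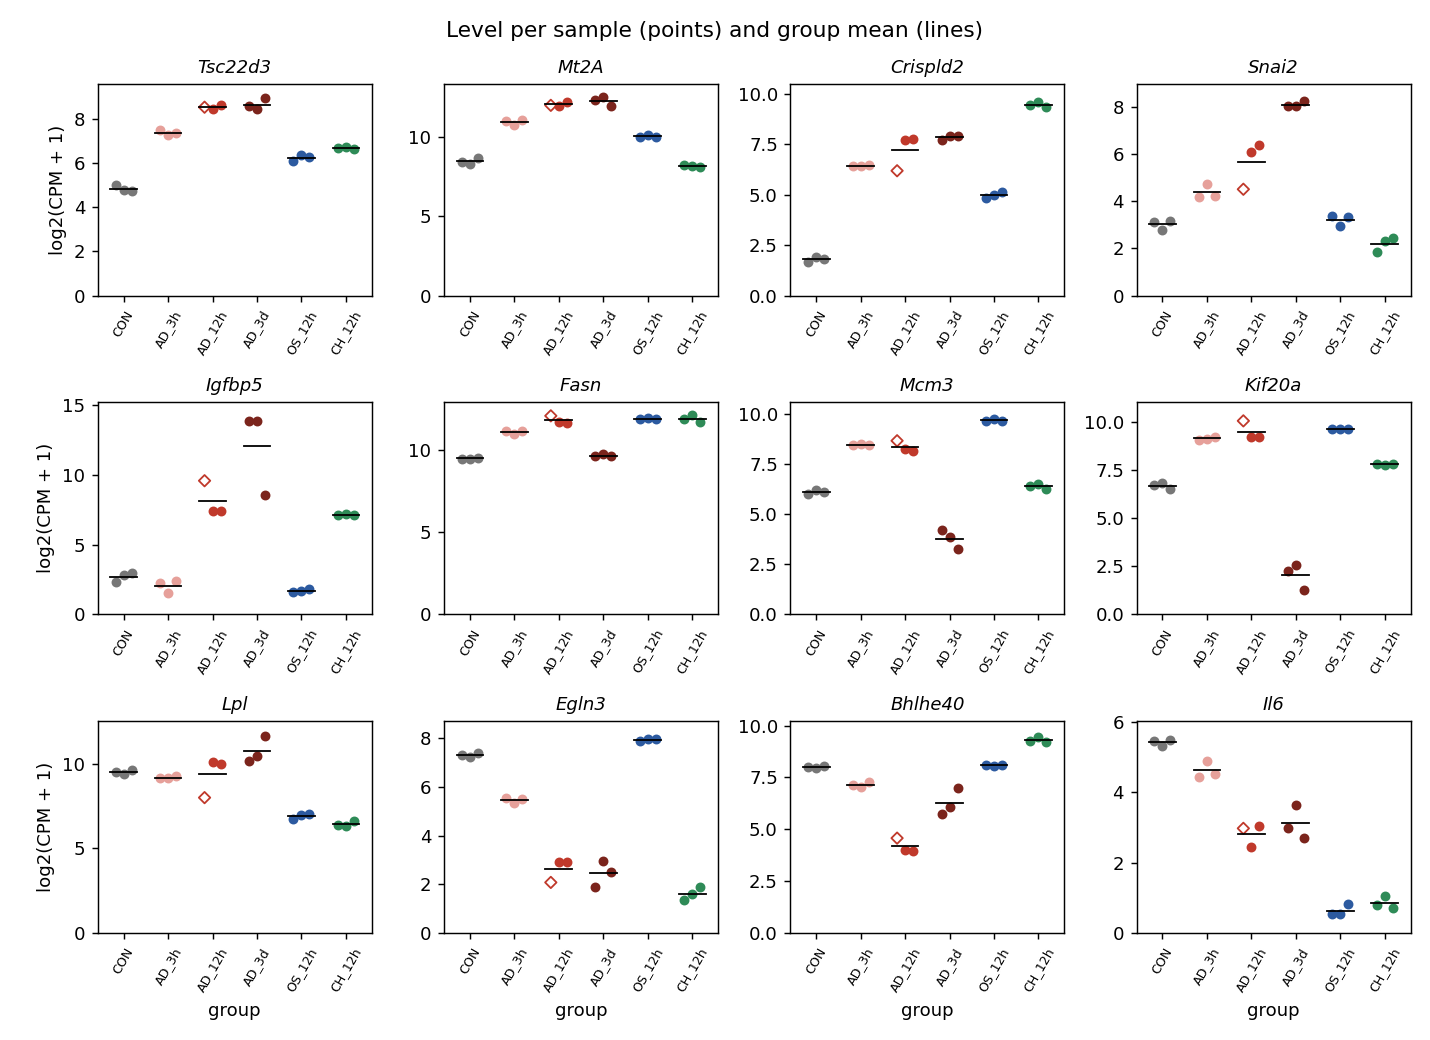
Level of 12 genes as log2(CPM + 1) in each sample (points) of CON, AD_3h, AD_12h, AD_3d, OS_12h and CH_12h, with the group mean as a line and AD_12h replicate 1 as an open diamond. Tsc22d3 and Mt2A are higher in AD_12h than in AD_3h, OS_12h and CH_12h, Mcm3 and Kif20a fall to their lowest level at 3 d, and Egln3 is high in OS_12h and low in AD_12h.

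Several genes of the adipocyte and lipid storage list rose at 12 h, led by Fasn and Scd2. Of the 18 members of the list that were tested, 6 rose and 0 fell (limma and edgeR, and 0 were lower at an unadjusted p under 0.05), against 8.14% called higher and 5.55% lower among all tested genes, with a median log2 fold change of 0.48 against 0.15 over all. All 6 encode enzymes or carriers of fatty acids and their esters. Fasn, the fatty acid synthase, was at 694, 697 and 733 CPM in CON and at 4243, 3221 and 3157 CPM in AD_12h (2.31 ± 0.15, adjusted p = 5.44e-13). Scd2, a stearoyl-CoA desaturase, was at 2910 to 3152 CPM in CON and at 17835, 11014 and 11168 CPM in AD_12h (2.11 ± 0.12). In both genes replicate 1 was the highest. Elovl6, which elongates fatty acids, was at or under 3 reads in CON and at 1.1 to 5.74 CPM in AD_12h, at least 7.69-fold higher. Pnpla3, a lipase-related gene, rose by 1.39, Dgat2, an enzyme of triglyceride synthesis, by 1.23 and Fabp5, a fatty acid carrier, by 1.28. Without replicate 1, Fabp5 missed the threshold at 0.98 and 5 members remained called. Fasn and Scd2 were not called between AD_12h and OS_12h or CH_12h. Their differences from OS_12h, where the group means were 3791 and 16881 CPM, were -0.11 ± 0.15 and -0.38 ± 0.12. Both lay under the fold threshold.

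Lpl, the lipoprotein lipase of adipocytes, was not called with or without replicate 1, though the sign of its difference changed. It was at 721, 663 and 777 CPM in CON and at 253, 1093 and 1028 CPM in AD_12h. Replicate 1 lay below all CON samples and replicates 2 and 3 above them. The log2 fold change was -0.13 ± 0.32 (adjusted p = 0.807) with all replicates and 0.56 (adjusted p = 0.0473) without replicate 1, under the fold threshold. Against OS_12h and CH_12h, Lpl was 2.47 and 2.93 higher on the log2 scale.

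Pparg and Cebpa, which define adipocytes, were not called. Pparg, the nuclear receptor of the adipocyte program, was listed at no more than 2 reads in any of the 6 samples, and Plin1, which coats lipid droplets, also at no more than 2. Cebpa was at 0.418 to 1.06 CPM in CON and 0 to 0.368 CPM in AD_12h (-0.58 ± 0.38, adjusted p = 0.26). At this depth, and in a table where Actb is listed near 0, a difference in these genes was not detectable. Cebpb, Cebpd, Fabp4, Adipoq and Plin2 were not analysed here. Of the 16 adipogenic TFs tested, Snai2 rose and Bhlhe40 and Klf5 fell, against 8.14% called higher and 5.55% lower among all tested genes, and the median log2 fold change was -0.12. Without replicate 1 the median was 0.0039 and Nfia, a nuclear factor I gene at 2.72 to 3.9 CPM in CON and 7.02 to 8.47 CPM in AD_12h, was also called higher (1.02, against 0.98 with all replicates). Klf5, a zinc finger activator, was at 39.1 to 50.3 CPM in CON and at 15.4, 16.9 and 17.6 CPM in AD_12h (-1.33 ± 0.16, adjusted p = 1.34e-07).

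Cholesterol synthesis genes depended on replicate 1. Cyp51 and Sqle, 2 of 17 tested members, were called higher with all replicates (8.14% among all tested genes), and neither without replicate 1, after median-ratio scaling or with edgeR. Sqle, the squalene epoxidase, was at 422 to 474 CPM in CON and at 1165, 792 and 857 CPM in AD_12h. All 3 samples lay above CON, and the log2 fold change of 1.07 became 0.91 without replicate 1.

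Genes of DNA replication and mitosis rose together and formed the lists with the largest medians. Of 19 tested genes of DNA replication and the G1/S step, 12 rose and 0 fell (limma, 13 and 0 with edgeR, and 15 and 0 at an unadjusted p under 0.05), against 8.14% called higher among all tested genes, with a median log2 fold change of 1.75. Of 34 genes of mitosis and the G2/M step, 23 rose and 0 fell (26 and 0 with edgeR, and 30 and 0 at an unadjusted p under 0.05), with a median of 1.68. Without replicate 1 the counts of rises were 14 and 22 and the medians 1.68 and 1.59, and after median-ratio scaling they were 11 and 22. Tyms, the thymidylate synthase, was at 29.8, 28.4 and 27.8 CPM in CON and at 193, 238 and 246 CPM in AD_12h (2.93 ± 0.13, adjusted p = 4.81e-17). Mcm3, a subunit of the replicative helicase, was at 63.5, 73.1 and 66.4 CPM in CON and at 402, 299 and 282 CPM in AD_12h (2.24 ± 0.16). Gins1 and Gins3, which activate that helicase, rose by 2.18 and 2.17. Pclaf, a partner of the PCNA clamp, was at 13 to 13.8 CPM in CON and at 116 to 157 CPM in AD_12h (3.20 ± 0.17), and Nasp, a histone chaperone, rose by 2.93.

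The summed level of the mitosis genes was highest in replicate 1, though not every gene was. The summed level of the 34 genes was 504 to 534 CPM in CON and 4389, 2376 and 2395 CPM in AD_12h replicates 1 to 3. For the replication genes it was 679 to 710 CPM in CON and 3020, 2631 and 2599 CPM in AD_12h. Most of the mitosis genes had a smaller log2 fold change without replicate 1, but Ccna2, Mad2l1, Cenpt, Incenp, Cenpk and Foxm1 had a larger one, such as 1.96 against 1.74 for Mad2l1, a spindle checkpoint gene. Kif20a, a kinesin of late mitosis, was at 90.8 to 113 CPM in CON and at 1057, 598 and 587 CPM in AD_12h (2.80 ± 0.20, adjusted p = 2.2e-12). Nuf2, a kinetochore protein, rose by 2.86, Birc5, which encodes survivin, by 2.64 and Top2a, a topoisomerase of dividing cells, by 2.62. All of these samples lay above all CON samples.

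Between AD_12h and AD_3h, where 565 genes (12.9%) were called, 0 replication genes rose and 1 fell (limma, 1 and 1 with edgeR, and 4 and 2 at an unadjusted p under 0.05), and 1 mitosis gene rose and 0 fell (limma, 4 and 0 with edgeR, and 12 and 1 of 34 at an unadjusted p under 0.05). From CH_12h (593 genes called, 13.6%), 11 replication and 24 mitosis genes differed, all of them higher in AD_12h. From OS_12h (574 genes called, 13.2%, and 739 without replicate 1), 7 replication and 2 mitosis genes differed, all of them lower in AD_12h, and without replicate 1 the mitosis count was 9. With edgeR the counts were 3 and 1, and the listed genes held 68.7% to 71.4% of the reads in OS_12h and 54.2% to 64.6% in AD_12h. Kif20a, for example, had a mean of 560 CPM in AD_3h, 788 CPM in OS_12h, 219 CPM in CH_12h and 3.38 CPM in AD_3d. Mcm3 had means of 350, 816, 82.2 and 13.2 CPM in these groups, so both genes were below their CON levels in AD_3d.

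For the replication and mitosis genes called higher, the 250 bases upstream of their RefSeq start sites (GRCr8) were searched on both strands. The motifs were the CHR element TTTGAA, known from promoters of G2/M genes, and the E2F site TTTGGCGC of G1/S genes. The CCAAT box, common in promoters of many kinds and also of G2/M genes, was searched too. Members that were not called were not searched, and such motifs are known from these classes of genes, so the shares do not bear on the rise. A promoter was found for 18 of the 23 mitosis genes that rose, and 10 of these held TTTGAA and 14 held CCAAT. Of the 11 promoters found for replication genes that rose, 1 held TTTGAA and 7 held CCAAT. Over all 33469 promoters in the table the shares were 16.2% and 34.0%. TTTGGCGC was in 3 of the 11 replication promoters and in 0 of the 18 mitosis promoters, against 0.412% of all promoters. Each motif was counted by itself, matches of different motifs could overlap, and a match is a description of the sequence and not a sign of binding. Birc5, Top2a and Tyms are shown because they are among the largest rises with such a match, with every matching base, on either strand, in capitals.
Birc5 (chr10:103571896-103572145, plus strand, TTTGAA and CCAAT): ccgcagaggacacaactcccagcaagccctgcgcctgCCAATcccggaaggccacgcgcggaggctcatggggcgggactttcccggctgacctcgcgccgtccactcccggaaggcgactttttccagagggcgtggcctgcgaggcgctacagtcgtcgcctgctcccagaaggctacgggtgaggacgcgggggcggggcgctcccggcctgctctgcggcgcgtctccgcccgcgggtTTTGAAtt
Top2a (chr10:84473094-84473343, minus strand, TTTGAA and CCAAT): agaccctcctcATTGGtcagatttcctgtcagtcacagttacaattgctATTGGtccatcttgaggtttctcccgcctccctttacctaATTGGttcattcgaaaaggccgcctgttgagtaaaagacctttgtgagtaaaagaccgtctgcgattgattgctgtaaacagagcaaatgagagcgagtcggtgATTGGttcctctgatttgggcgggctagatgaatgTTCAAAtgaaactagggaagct
Tyms (chr9:120776084-120776333, minus strand, TTTGGCGC): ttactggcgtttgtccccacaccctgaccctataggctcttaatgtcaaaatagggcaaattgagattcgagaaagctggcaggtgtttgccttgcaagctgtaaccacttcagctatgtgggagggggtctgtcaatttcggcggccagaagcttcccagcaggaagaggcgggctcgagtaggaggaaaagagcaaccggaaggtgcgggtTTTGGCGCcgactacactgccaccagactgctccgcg
Birc5 held 1 match of each, Top2a 1 of TTTGAA and 4 of CCAAT, and Tyms 1 of TTTGGCGC.

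A further pair of promoters belongs to genes named above and below. Mt2A is shown with TGCACNC, the core of the metal response element, in capitals (2 matches, and 10.3% of all promoters held at least 1). Bnip3, a mitophagy gene that fell, is shown with ACGTG, the core to which hypoxia-inducible factors bind, in capitals. It held 2 matches that overlap on opposite strands. At least 1 match was in 4 of the 7 promoters of hypoxia genes that fell and in 16.6% of all promoters. The glucocorticoid half-site TGTTCT was in 1 of the 5 promoters found for 3 of the 4 glucocorticoid list genes that rose, and in 17.5% of all promoters.
Mt2A (chr19:10838709-10838958, minus strand, TGCACNC): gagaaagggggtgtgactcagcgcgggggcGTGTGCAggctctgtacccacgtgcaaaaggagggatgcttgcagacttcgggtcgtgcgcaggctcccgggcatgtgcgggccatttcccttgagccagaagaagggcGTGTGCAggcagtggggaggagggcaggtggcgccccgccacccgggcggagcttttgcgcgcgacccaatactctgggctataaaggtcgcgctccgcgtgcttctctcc
Bnip3 (chr1:203154963-203155212, minus strand, ACGTG): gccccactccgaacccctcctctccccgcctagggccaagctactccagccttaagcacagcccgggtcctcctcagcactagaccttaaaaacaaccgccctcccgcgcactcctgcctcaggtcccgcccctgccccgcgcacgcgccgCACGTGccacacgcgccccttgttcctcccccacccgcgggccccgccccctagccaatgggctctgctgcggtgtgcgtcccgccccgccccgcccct

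Several targets and regulators of the hypoxia response fell. Of 20 tested members of the hypoxia and glycolysis list, 7 fell and 2 rose (9 and 2 without replicate 1, 10 and 2 after median-ratio scaling), against 5.55% called lower among all genes, with a median log2 fold change of -0.69. Egln3, a prolyl hydroxylase that marks hypoxia-inducible factors for breakdown and is itself their target, was at 157, 150 and 168 CPM in CON and at 3.22, 6.63 and 6.48 CPM in AD_12h (-4.68 ± 0.23, adjusted p = 3.76e-16). Bhlhe40, a bHLH repressor of the circadian and hypoxia responses, was at 259, 244 and 261 CPM in CON and at 22.8, 15.1 and 14.4 CPM in AD_12h (-3.82 ± 0.18), and its relative Bhlhe41 fell by 1.91. Bnip3 was at 342 to 347 CPM in CON and at 72.3, 60.8 and 60.1 CPM in AD_12h (-2.41 ± 0.12). The glucose and lactate carriers Slc2a1 and Slc16a3 were called lower at levels of at most 2.44 CPM. Pdk1, a kinase that inhibits pyruvate dehydrogenase, fell by 1.05. Among glycolytic enzymes, Ldha, Eno1, Gpi and Pfkfb3 were not called, at -0.09, -0.04, -0.17 and 0.06. Aldoa, Pkm and Pgk1 were not called either, at -0.59, -0.79 and -0.97. Without replicate 1, Ldha and Eno1 were at -0.30 and -0.31, and Pgk1 (-1.14) and Lox (-1.30) were also called lower. The members that rose were Epas1, a hypoxia-inducible factor itself, from 366 to 383 CPM in CON to 2325, 1374 and 1470 CPM (2.15 ± 0.15), and Ndrg1 (2.06 ± 0.28). Bhlhe40 was lower in AD_12h than in AD_3h, OS_12h and CH_12h by log2 fold changes of -2.97, -3.91 and -5.13, whereas Egln3 was lower than in AD_3h (-2.83) and OS_12h (-5.30) and higher than in CH_12h (1.02).

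Part of the contractile genes and targets of the YAP coactivator fell as well. Of 31 members tested, 9 fell and 0 rose (limma, 14 and 2 with edgeR, and 17 and 3 at an unadjusted p under 0.05), against 5.55% called lower among all tested genes, with a median of -0.62, and 13 fell without replicate 1. Cyr61, a matricellular YAP target, was at 458, 495 and 520 CPM in CON and at 47, 13.6 and 16.8 CPM in AD_12h (-4.40 ± 0.29, adjusted p = 3.63e-13). Cnn1, the smooth muscle calponin, was at 87.1 to 88.7 CPM in CON and at 24.4, 13.3 and 13.9 CPM in AD_12h (-2.34 ± 0.17). Myh10, a nonmuscle myosin, was at 7498 to 7945 CPM in CON and at 1920, 1517 and 1542 CPM in AD_12h (-2.23 ± 0.11). Replicate 1 was nearest to CON in these genes. Cnn1 and Cyr61 were also lower in AD_12h than in OS_12h, by log2 fold changes of -2.08 and -3.15, and than in CH_12h, by -4.47 and -4.25. Among the 31, 17 were called lower than in CH_12h and 0 higher (limma, 19 and 0 with edgeR, and 24 and 1 at an unadjusted p under 0.05), where 13.6% of all tested genes were called in either direction.

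**Figure D3:**
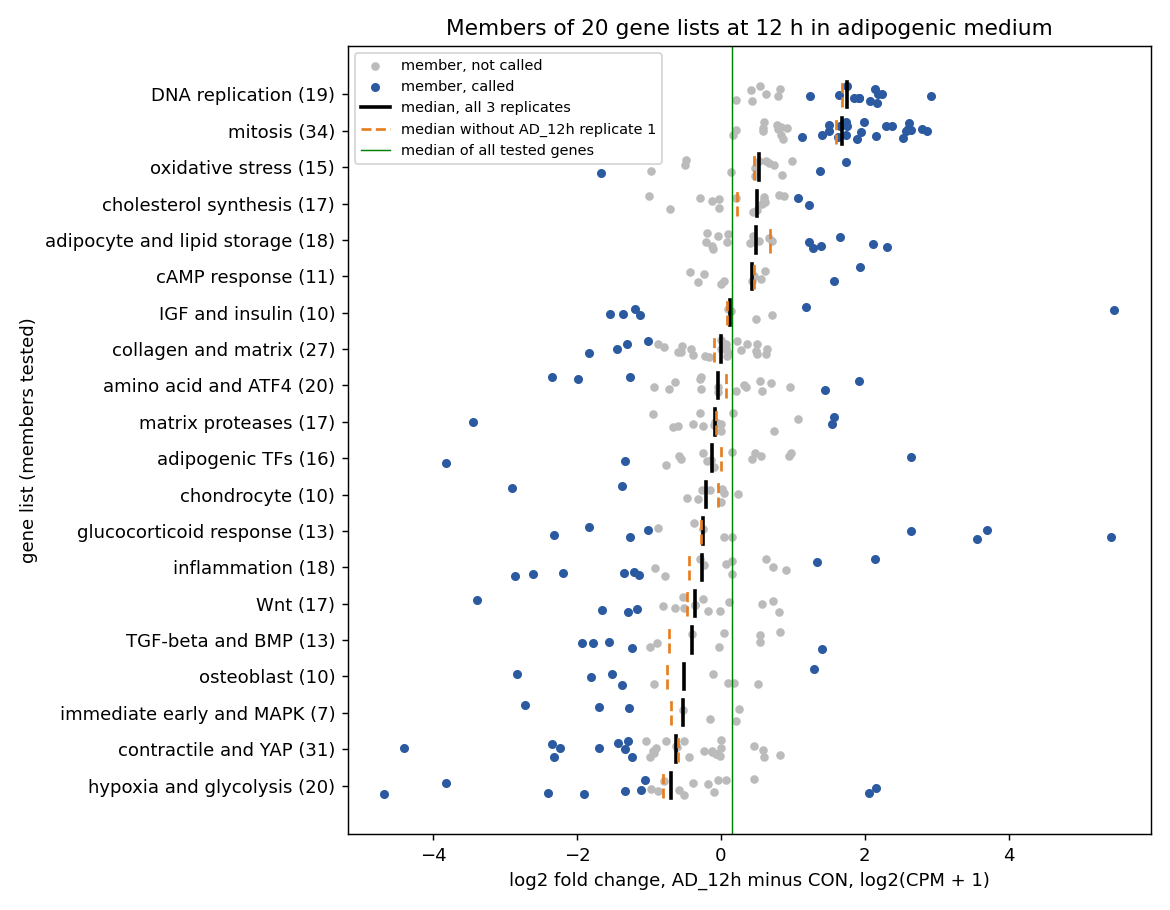
Log2 fold change of AD_12h against CON, on the log2(CPM + 1) scale, for the tested members of 20 gene lists (points, blue where called), with the list median from all 3 replicates (black) and without AD_12h replicate 1 (dashed orange). The green line marks the median of all tested genes, 0.15, and the lists run from DNA replication (median 1.75) to hypoxia and glycolysis (median -0.69).

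Regulators and products of the bone and cartilage lineages fell in most called cases. Sox9, the regulator of chondrocytes, was at 46.6, 46.8 and 50.8 CPM in CON and at 5.85, 5.89 and 5 CPM in AD_12h (-2.90 ± 0.14, adjusted p = 4.96e-16), and it was lower than in OS_12h and CH_12h too (-1.53 and -6.60). With Scx, a tendon regulator near the detection floor, it made up the 2 members called lower of 10 tested chondrocyte genes. Of 10 tested osteoblast genes, Mgp, Tnfrsf11b, Ankh and Sema7a fell and Dlx3 rose. Among all tested genes, 5.55% were called lower and 8.14% higher. Mgp, an inhibitor of mineralization, was at 2603 to 2750 CPM in CON and at 203, 477 and 524 CPM in AD_12h (-2.84 ± 0.23). Tnfrsf11b, which encodes osteoprotegerin, was at 281 to 325 CPM and at 69.3 to 106 CPM. Dlx3, a homeobox gene, was at 27.9 to 31.7 CPM in CON and at 190, 43.3 and 49 CPM in AD_12h. The call rested on replicate 1, since the log2 fold change was 1.29 with it and 0.62 without it, whereas Atf4, also in this list, was called lower only without it (-1.04). Runx2 was not analysed here.

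In the Wnt and BMP pathways most of the called genes fell, and in the IGF pathway Igfbp5 rose while Igfbp3 and Igfbp6 fell. The counts stand against 8.14% called higher and 5.55% lower among all tested genes. Of 17 Wnt genes tested, 4 fell and 0 rose (limma, 6 and 1 with edgeR, and 6 and 3 at an unadjusted p under 0.05), with a median of -0.37, and without replicate 1 Dkk3 was also called lower (-1.10). Sfrp2, a secreted Wnt antagonist, was at 113 to 120 CPM in CON and at 29.7, 5.16 and 6.29 CPM in AD_12h (-3.40 ± 0.75, adjusted p = 0.000599, and -4.13 without replicate 1). Frzb, a related antagonist, fell by 1.65, and the feedback genes Axin2 and Rnf43 fell at levels under 6 CPM. Of 13 genes of the TGF-beta and BMP pathways, Nog, Id3, Id2 and Bmp3 fell and Tgfbr3, a coreceptor, rose (1.41 ± 0.10), and without replicate 1 Tgfb1 was also called lower (-1.08). Id3, a bHLH inhibitor induced by BMP, was at 683 to 770 CPM in CON and at 300.0, 165 and 179 CPM in AD_12h (-1.78 ± 0.20). Of 10 IGF and insulin genes, Igfbp5 and Pik3r1, the regulatory subunit of PI3 kinase, rose, and Igfbp3, Igfbp6, Irs2 and Grb14 fell. Igfbp6 was at 417 to 446 CPM in CON and at 349, 126 and 110 CPM in AD_12h. Pik3r1 missed the threshold after median-ratio scaling (0.93), and the median of the list, 0.13, turned to -0.04.

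Several cytokine genes fell, while the chemokine genes Cxcl6 and Cxcl10 rose. Of 18 tested inflammatory genes, 6 fell and 2 rose, against 5.55% called lower and 8.14% higher among all tested genes, with a median of -0.27 (-0.44 without replicate 1). Il6 was at 43.4, 39.3 and 44.1 CPM in CON and at 6.87, 4.42 and 7.22 CPM in AD_12h (-2.62 ± 0.29, adjusted p = 2.25e-08). It was lower than in AD_3h (-1.81) but higher than in OS_12h and CH_12h (2.19 and 1.97), whose means were 0.554 and 0.816 CPM. Il1a was at 5.61 to 9.74 CPM in CON and at no more than 2 reads in AD_12h, at least 14.4-fold lower. Csf2, a growth factor of myeloid cells, was at 3.2 to 4.3 CPM in CON and had 0 reads in all 3 AD_12h samples, at least 6.51-fold lower. Il1rl1, the receptor for interleukin 33, was at 835, 859 and 1100 CPM in CON and at 115, 57.6 and 61.6 CPM in AD_12h (-3.62 ± 0.36). Cxcl6 rose from 13.9 to 22.2 CPM in CON to 49.3, 94.7 and 101 CPM in AD_12h (2.14 ± 0.67, adjusted p = 0.013). Of 7 immediate early and MAPK feedback genes, Dusp4, Jun and Ier3 fell and 0 rose (limma and edgeR, and 0 at an unadjusted p under 0.05). Jun was at 18.5 to 24.8 CPM in CON and at 17.1, 3.13 and 3.7 CPM in AD_12h, with replicate 1 close to CON.

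The remaining lists held few calls, several at shares near the 8.14% called higher and 5.55% lower among all tested genes. Of 11 cAMP-responsive genes, Gem, a small GTPase, and Plau, the urokinase plasminogen activator, rose. Plau was at 1.53 to 3.49 CPM in CON and 7.4 to 9.07 CPM in AD_12h, after a mean of 187 CPM in AD_3h. Of 17 matrix proteases, Plau and Mmp15 rose and Adamts1, a metalloprotease, fell from 8337 to 8703 CPM in CON to 919, 749 and 713 CPM (-3.44 ± 0.14, adjusted p = 1.27e-17). Without replicate 1, Mmp10 was also called higher (1.70) and Cst6, a protease inhibitor, lower (-1.28). Of 27 collagen and matrix genes, Col8a2, Itgbl1, Emilin1 and Plod1 fell and 0 rose (limma, 7 and 0 with edgeR, and 8 and 3 at an unadjusted p under 0.05), with a median of 0.00 that was -0.24 after median-ratio scaling, and without replicate 1 Lox, which cross-links collagen, was also called lower (-1.30). Of 20 genes of amino acid synthesis and the ATF4 response, Phgdh and Aldh1l2 rose and Ppp1r15a, Chac1 and Slc1a4 fell, to which Mthfd2 (1.12) and Atf4 (-1.04) were added without replicate 1, and 11 were lower than in AD_3h and 0 higher (limma and edgeR, and 16 and 1 at an unadjusted p under 0.05), where 12.9% of all tested genes were called in either direction. Of 15 genes of the oxidative stress list, Nqo1, a quinone reductase, rose from 341 to 356 CPM in CON to 1080, 1203 and 1225 CPM (1.74 ± 0.09), Tkt rose by 1.38 and Gclm fell by 1.66. Among the endothelial markers tested, Mmrn2 was called higher and Vwf lower at levels of at most 6 CPM, and Mmrn2 was not called without replicate 1. The 2 tested markers of lymphoid, erythroid and granulocytic cells were not called with limma or edgeR, and at an unadjusted p under 0.05 the counts were 0 with limma and 1, higher, with edgeR.

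The study lists 26 TFs for 12 h of adipogenesis, chosen on these same samples, so their direction is not independent evidence. Of the 25 that passed the filter, 10 rose and 12 fell. Those that rose included Epas1, Snai2, Creb3l1, a transmembrane TF of secretory cells, from 263 to 278 CPM in CON to 962 to 1013 CPM in AD_12h (1.85 ± 0.18), Ehf (1.78 ± 0.26) and Hic1 (1.38 ± 0.18). Those that fell included Sox9, Bhlhe40, Id2, Id3 and Arid3b (-1.48 ± 0.19). Ahrr, Foxm1 and Atf4 were not called with limma, at -0.97, 0.92 and -0.93, but edgeR called all 25 (11 higher and 14 lower), and Ahrr and Atf4 were also called after median-ratio scaling (-1.17 and -1.18). Without replicate 1, Atf4 was called lower at -1.04, and Hoxd9 and Zfp536 were no longer called.

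Replicate 1 differed from replicates 2 and 3 in both directions, beside the larger share of its reads in the listed genes (64.6% against 54.2% and 54.3%). In 299 genes it lay more than 1 from their mean on the log2(CPM + 1) scale, higher in 156 and lower in 143. The same count taken for replicates 2 and 3 gave 130 and 125, and in the other groups it ran from 33 in a CH_3h sample to 425 in an AD_3d sample. Among genes in which replicates 2 and 3 were alike, those in which replicate 1 lay furthest above them included Kprp, Clca4l, Hspb7 and Wfdc21. Hspb7, a small heat shock protein gene, was at 1618, 1704 and 1860 CPM in CON and at 4972, 818 and 814 CPM in AD_12h. Replicate 1 thus lay above all CON samples and replicates 2 and 3 below them. The log2 fold change of -0.21 with all replicates became -1.08 (adjusted p = 2.13e-05) without replicate 1, and the OS_12h mean was 9961 CPM. Replicate 1 lay furthest below the other two for Hnrnpa2b1, NEWGENE_620180, Dll1, Sez6l and Peli2. Dll1, a Notch ligand, was at 4.25 to 7.66 CPM in CON and at 5.85, 35.2 and 27.4 CPM in AD_12h, so the call (1.52 ± 0.37) came from replicates 2 and 3, and the OS_12h mean was 0.652 CPM. Read counts of replicate 1 differed from those of replicates 2 and 3 by a chi-square per degree of freedom of 43.0 and 42.5, against 3.26 between replicates 2 and 3 and 3.36 to 6.02 within CON, and all of these exceed 1, the value for read-counting error alone. No pair was treated as a repeat of the same library.

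**Figure D4:**
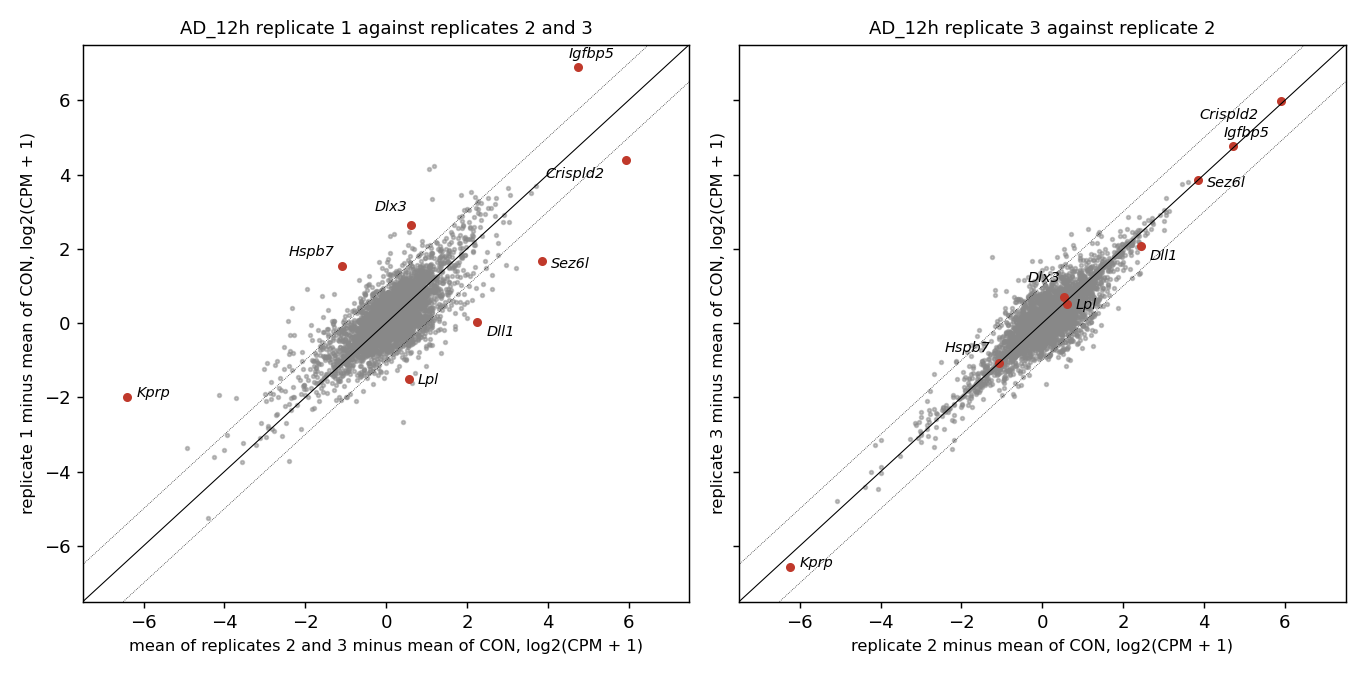
Difference from the CON mean on the log2(CPM + 1) scale for each of 4363 tested genes, in AD_12h replicate 1 against the mean of replicates 2 and 3 (left) and in replicate 3 against replicate 2 (right). The solid line marks equal differences and the dotted lines a distance of 1 from it, which 299 genes pass on the left, among them Igfbp5, Kprp, Hspb7, Lpl and Dll1.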

How the data were processed

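RNA was measured in BMSCs of 10 groups of 3 samples, of which AD_12h and CON were compared here. The sample labels describe libraries depleted of ribosomal RNA and the paper mRNA libraries, so the kit is uncertain, and so is whether counting used strand. Per the labels, the authors used Trimmomatic, HISAT2 and StringTie, whose versions and genome build are not given in the sources used here. The authors deposited CPM values under the name FPKM, with 10803 rows under 9999 gene names per sample. Of the names, 729 were on several rows and were summed, and 15 were spreadsheet dates. Read counts and totals were recovered from the step between low values (100% whole within 0.1 read). RefSeq (GRCr8) held 8356 of the names as symbols and 454 more as synonyms. The floor of 3 reads reflects counting error alone, as the reads carry no molecular identifiers.

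The 4363 genes that reached 1 CPM in 3 or more samples entered limma 3.58.1 in R 4.3.3 (eBayes with trend) on log2(CPM + 1), in 1 model of 10 groups and 30 samples without covariates. DEGs differed by 1 or more on the log2 scale, with a p under 0.05 after Benjamini-Hochberg adjustment over all tested genes. The alternative edgeR 4.0.16 (quasi-likelihood test) used the recovered reads. The fit was tested on simulated data. Also tried were median-ratio scaling, quantile normalization, a pseudocount of 0.1, testing without the filter, fitting the 6 samples alone, leaving out each replicate, a replicate block, and the highest row per name or rows tested apart. Chosen after seeing the data were rescaling to the sum of the listed genes, and median-ratio scaling or the fit on 6 samples without AD_12h replicate 1.

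The comparison and the 25 gene lists were chosen with earlier results of these data known. Genes named were the 10 largest rises and 10 largest falls without overlap between the groups, up to 4 called members per list and direction, fixed adipogenic genes, the study's TFs, and the 5 genes per direction in which AD_12h replicate 1 departed most. Of these, 1 gene is not reported here. Slc2a1, Slc16a3, Pdk1, the glycolytic enzymes, Fabp5, Dgat2 and the members called only without replicate 1 were named after their values were seen. So were the markers, Actb, Vim, Ppia, B2m and Rplp0 and the genes of the closing section. Figures were drawn with Python 3.11.15 and matplotlib 3.10.9.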

Additional observations from a re-analysis of the deposited data

Results flagged for a closer look

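For the 5 largest rises and the 5 largest falls, the difference of AD_12h from AD_3h, OS_12h and CH_12h was tested in the same limma fit, and those past the threshold are given as log2 fold changes. These comparisons share the AD_12h samples, and causes were not tested. Igfbp5 differed from AD_3h by 6.10 and from OS_12h by 6.46. Crispld2 differed from OS_12h by 2.25 and from CH_12h by -2.25, with replicate 1 the lowest of its group. Its difference of 0.80 from AD_3h was under the fold threshold and became 1.32 (adjusted p = 5.44e-09), past it, without replicate 1. Tsc22d3 was higher than all 3, by 1.16 from AD_3h, 2.31 from OS_12h and 1.86 from CH_12h, and so was Mt2A, by 1.11, 2.02 and 3.87. Rab24 differed from CH_12h by 2.84. Kprp differed from AD_3h by 1.77 and from OS_12h by -2.99. The first of these rested on replicate 1, since without it the difference was 0.30 (adjusted p = 0.626), while a difference of -2.23 from CH_12h was then called. Egln3 differed from AD_3h by -2.83, from OS_12h by -5.30 and from CH_12h by 1.02. Ccr1 had the same pattern of signs, with -2.34, -5.59 and 1.65. Cyr61 was lower than all 3, by -1.43 from AD_3h, -3.15 from OS_12h and -4.25 from CH_12h, and so was Bhlhe40, by -2.97, -3.91 and -5.13.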

How the results depend on the processing

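The number of DEGs between AD_12h and CON lay between 537 (fit on 6 samples) and 757 (pseudocount 0.1) over the alternatives run, against 597 as reported. Leaving out 1 replicate in turn gave 593 to 649 DEGs, 354 to 371 of them higher and 230 to 278 lower. The genes called lower numbered 411 with edgeR and 379 with edgeR without AD_12h replicate 1, against 242. Those higher in AD_12h than in OS_12h numbered 429 with a pseudocount of 0.1 and 485 with edgeR, against 269. The share of higher genes among DEGs was 59.5% as reported, 46.5% after quantile normalization, 43.6% with edgeR and 41.7% after median-ratio scaling, which took the median log2 fold change over all tested genes from 0.15 to 0. Of the 597 DEGs, 516 were called in the same direction with edgeR and 485 after median-ratio scaling. With a replicate block, 598 genes were called. Same-numbered AD_12h and CON samples did not deviate together (correlations of -0.016, -0.023 and -0.036), so the numbers were not taken as pairs, and the block changed no call of a named gene. No named gene that was called reversed its direction in any alternative. Of 114 named genes called as reported, 7 lost the call without AD_12h replicate 1 and up to 9 in any other alternative. Depth limits genes near 3 reads, such as Pparg, Plin1 and Cebpa.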

Other observations

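Several histone genes, of a family noticed after the values were seen and therefore not tested as a list, were higher along with the replication genes. Of 18 tested genes whose names start with Hist, 11 were called higher and 0 lower with limma, with and without replicate 1 (10 and 0 with edgeR, and 14 and 0 at an unadjusted p under 0.05), against 8.14% called higher among all tested genes, and their median log2 fold change was 1.40. The other 7 were not called. Hist1h1a, a linker histone, was at 28.5, 29.9 and 29.3 CPM in CON and at 225, 224 and 228 CPM in AD_12h, so that replicate 1 did not stand apart. Hist1h2ao, a core histone, was at 143 to 181 CPM in CON and at 1143, 733 and 678 CPM in AD_12h. Compared with CH_12h, 14 were called higher with limma and 15 with edgeR, where 13.6% of all tested genes were called in either direction. Compared with OS_12h (13.2%), 3 were called lower with limma (6 without replicate 1), but 1 after median-ratio scaling, and edgeR called 1 lower and 1 higher. Histone genes have near-identical copies, so the split of reads among them is uncertain, and messages without a poly(A) tail depend on the library kit, which the sources describe differently.

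A pair of genes of hyaluronan turnover changed in opposite directions. Cemip, which takes part in hyaluronan breakdown, was at 20866, 20136 and 20114 CPM in CON and at 4482, 3868 and 3852 CPM in AD_12h, a log2 fold change of -2.33 ± 0.13. Has2, a hyaluronan synthase, was at 13 to 18.8 CPM in CON and at 26, 72.7 and 76.6 CPM in AD_12h (1.62 ± 0.27), after a mean of 416 CPM in AD_3h. Sesn3, a stress-induced gene, was at 109 to 118 CPM in CON and at 518, 758 and 828 CPM in AD_12h, and it was also higher than in AD_3h, OS_12h and CH_12h by 2.17, 3.79 and 1.30 on the log2 scale. Cdh11, a cadherin of mesenchymal cells, rose by 1.71 and Txnip, an inhibitor of thioredoxin, by 2.16, whereas Angptl2 and Serping1, both secreted proteins, fell by 2.64 and 2.11.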
